A study of Mus musculus with 4 samples.

Results

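The 32 genes described here are markers of the cell division cycle, picked by symbol from the 32286 features of the deposited count matrices, with earlier results of these data known. They fall into 13 genes of S phase, in which DNA is copied, 15 genes of G2 and mitosis (G2/M), in which the copied chromosomes are prepared and separated, and 4 genes that dividing cells use but other cells use too (Ccnd1, Tubb5, Stmn1 and H2afz, called broad below). All 32 had at least 1 UMI in each of the 4 libraries. A UMI (unique molecular identifier) stands for 1 captured RNA molecule.

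The study asked, by its title, where in skeletal muscle CRISPR carried by lipid nanoparticles (LNP) ends up. All libraries came from a mouse model of Duchenne muscular dystrophy, a muscle-wasting disease caused by loss of dystrophin, in which fibres die and are rebuilt again and again. One library was made for each of 4 groups, which cross treatment (vehicle or LNP-CRISPR) with isolation, where bulk stands for all cells of the muscle preparation and kit for cells enriched with a satellite cell isolation kit. Strain, age, sex, dose, time after dosing and the number of animals per library are not given in the sources used here. With 1 library per group no difference between groups can be tested against the spread between animals, so intervals below cover counting error only and no p-value is given.

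Entry into the cycle is driven by D-type and E-type cyclins, which release E2F transcription factors from the RB proteins, and E2F then switches on the S phase genes. Most G2/M genes are switched on later through a promoter sequence called the cell cycle genes homology region (CHR), which is bound by the MuvB complex together with B-Myb and FOXM1, and many of them also carry CCAAT boxes bound by NF-Y. In adult muscle most satellite cells, the stem cells of the tissue, rest outside the cycle, and after injury they divide as myoblasts before they fuse.

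Promoter windows were found in the RefSeq table of GRCm38.p6 for 25 of the 32 genes, as 250 bases before and 50 bases after the annotated start. The table held none for Mcm4, Ccna2, Tpx2, Aurkb, Ccnd1, Stmn1 and H2afz. A gene was counted when any window of it matched (Mcm7 had more than 1), whereas the shares over all are per window. Counting both strands, the CHR letters TTTGAA were found for 10 of 12 G2/M genes (all but Ccnb1 and Birc5) and 1 of 12 S phase genes (Mcm2), beside 17.9% of all 32851 windows of the same length. CCAAT was found for 11 of 12 G2/M genes and 9 of 12 S phase genes, beside 37.4% of all windows. The E2F site was searched as TTCCCGC, as the related spelling TTGGCGC, as the related spelling TTCGCGC and as the related spelling TTGCCGC, and neighbouring matches can overlap. At least 1 of these was found for 7 of 12 S phase genes (Mcm3, Mcm5, Mcm6, Mcm7, Rrm1, Rrm2 and Pclaf) and 3 of 12 G2/M genes (Mki67, Ccnb1 and Cdk1), beside 9.57% of all windows. CHR and CCAAT stood in the same window for 10 of 12 G2/M genes, 1 of 12 S phase genes and 6.95% of all. A match of letters is a description of the window and not evidence of binding.

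The 6 windows below show the contrast between the groups and belong to genes on which the results turn. Each runs 5′ to 3′ on the gene's own strand from 120 bases before to 30 bases after the annotated start, on GRCm38.p6, with matches on either strand in capitals, so that a CCAAT box on the other strand shows as ATTGG and an E2F match on it shows, for example, as GCGGGAA. Ccnb2 (chr9:70421525-70421674, minus strand), Cdc20 (chr4:118437314-118437463, minus) and Cenpf (chr1:189688057-189688206, minus) are G2/M genes with CHR and CCAAT letters. Mcm6 (chr1:128359676-128359825, minus), Rrm1 (chr7:102441575-102441724, plus) and Pclaf (chr9:65890203-65890352, plus) are S phase genes with an E2F match and no CHR match, and the capitals at the end of the Mcm6 window belong to a match that runs past it.
Ccnb2: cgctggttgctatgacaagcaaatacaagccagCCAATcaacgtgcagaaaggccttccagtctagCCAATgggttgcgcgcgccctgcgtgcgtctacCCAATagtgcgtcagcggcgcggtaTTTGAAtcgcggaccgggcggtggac
Cdc20: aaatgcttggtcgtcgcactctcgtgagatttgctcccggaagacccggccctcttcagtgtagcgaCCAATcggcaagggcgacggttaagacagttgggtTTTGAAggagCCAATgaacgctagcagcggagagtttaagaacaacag
Cenpf: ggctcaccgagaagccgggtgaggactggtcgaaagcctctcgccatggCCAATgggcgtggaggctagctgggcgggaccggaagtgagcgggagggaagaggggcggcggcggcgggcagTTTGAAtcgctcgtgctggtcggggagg
Mcm6: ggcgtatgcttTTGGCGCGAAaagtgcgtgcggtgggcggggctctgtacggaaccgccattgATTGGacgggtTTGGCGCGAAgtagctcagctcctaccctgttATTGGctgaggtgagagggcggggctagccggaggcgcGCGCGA
Rrm1: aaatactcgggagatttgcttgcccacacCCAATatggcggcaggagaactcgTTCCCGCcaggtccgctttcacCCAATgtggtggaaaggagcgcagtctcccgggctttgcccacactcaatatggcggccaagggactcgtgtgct
Pclaf: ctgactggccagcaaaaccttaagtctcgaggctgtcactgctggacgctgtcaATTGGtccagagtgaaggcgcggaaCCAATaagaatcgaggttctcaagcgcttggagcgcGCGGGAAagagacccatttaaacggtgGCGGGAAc
The 3 CCAAT boxes of Ccnb2 were 33 and 33 bases apart. They lay between 2 CHR matches, whose first bases were at −167, outside the stretch printed, and at 5 from the annotated start. Cdc20 had 1 CHR match, with CCAAT letters on both sides of it.

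The libraries held 1305 (vehicle) and 1317 (LNP-CRISPR) barcodes for bulk and 1683 and 2207 for kit, with 25921795 to 40666916 UMIs each, and 6 barcode sequences occurred in more than 1 library. After filtering, 5651 cells remained, with medians of 8627 to 22270 UMIs per cell. Where 4 values are given, they run from the vehicle and LNP-CRISPR libraries of the bulk isolation to those of the kit isolation. Cells were clustered without the cycle genes and named from marker genes, so every name ends in "-like". Mural-like cells carried markers of pericytes or smooth muscle, which share 1 marker list, and contractile genes of smooth muscle (Myh11, Cnn1, Mylk and Lmod1) were among their 10 leading genes. The kit libraries held 507 and 590 satellite-like cells (vehicle, then LNP-CRISPR), and the bulk libraries 43 and 36. In the kit satellite-like cells all 5 defining markers (Pax7, Myf5, Myod1, Cdh15 and Myog) were detected in both libraries. Myog also marks differentiating cells, and the class held clusters of these, described below. Detection of all 5 therefore does not make each cell a stem cell. None of the clusters met the marker rule for endothelial cells. A cluster of 20, 22, 164 and 178 cells (1.67%, 1.91%, 11.7% and 9.37% of the libraries) with a median of 795 UMIs was left unnamed, by a depth limit set after the clusters had been seen. Levels are UMIs per 1000000 nuclear-encoded UMIs of a cell class (CPM). They come from 3′ tags and are not scaled to gene length, so they are compared between classes and libraries and not between genes.

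Cell cycle genes were highest in the satellite-like class among the named classes. Summed over the 13 S phase genes, satellite-like cells had 1125 CPM in vehicle bulk, 1575 in LNP-CRISPR bulk, 1416 (95% exact Poisson interval 1400–1433) in vehicle kit and 1504 (1489–1519) in LNP-CRISPR kit. Summed over the 15 G2/M genes they had 2945, 3664, 3220 (3195–3246) and 2746 (2726–2767) CPM. In vehicle kit the next class, mural-like cells, was 3.85-fold lower for S phase and 5.23-fold lower for G2/M. That library held only 2 FAP-like cells and 1 macrophage-like cell, so these folds do not cover the classes found mainly in bulk. In vehicle bulk, for example, Mki67 was at 258 CPM in satellite-like and 166 CPM in dendritic-like cells, and Top2a at 430 and 140 CPM. The FAP-like and macrophage-like sums are given below. The satellite-like class had the highest level of 27, 29, 30 and 29 of the 32 genes in the 4 libraries.

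The unnamed low-depth cluster carried cycle genes as well. Its sums in vehicle kit and LNP-CRISPR kit were 1357 (1227–1497) and 1286 (1170–1410) CPM for S phase and 2419 (2245–2603) and 1882 (1742–2031) CPM for G2/M, which puts it below satellite-like cells and above every other named kit class. It held 713 and 666 G2/M UMIs over 164 and 178 cells, and 3 satellite markers (Myod1, Myog and Tnnt2) met the marker rule in it. Of the 71 and 49 cells with at least 1000 UMIs, 64.8% (52.5–75.8) and 49.0% (34.4–63.7) kept at least 2 G2/M UMIs when each was thinned at random to that number, against 32.4% and 36.9% of satellite-like cells. It enters the satellite-like values only where that is stated.

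**Figure D1:**
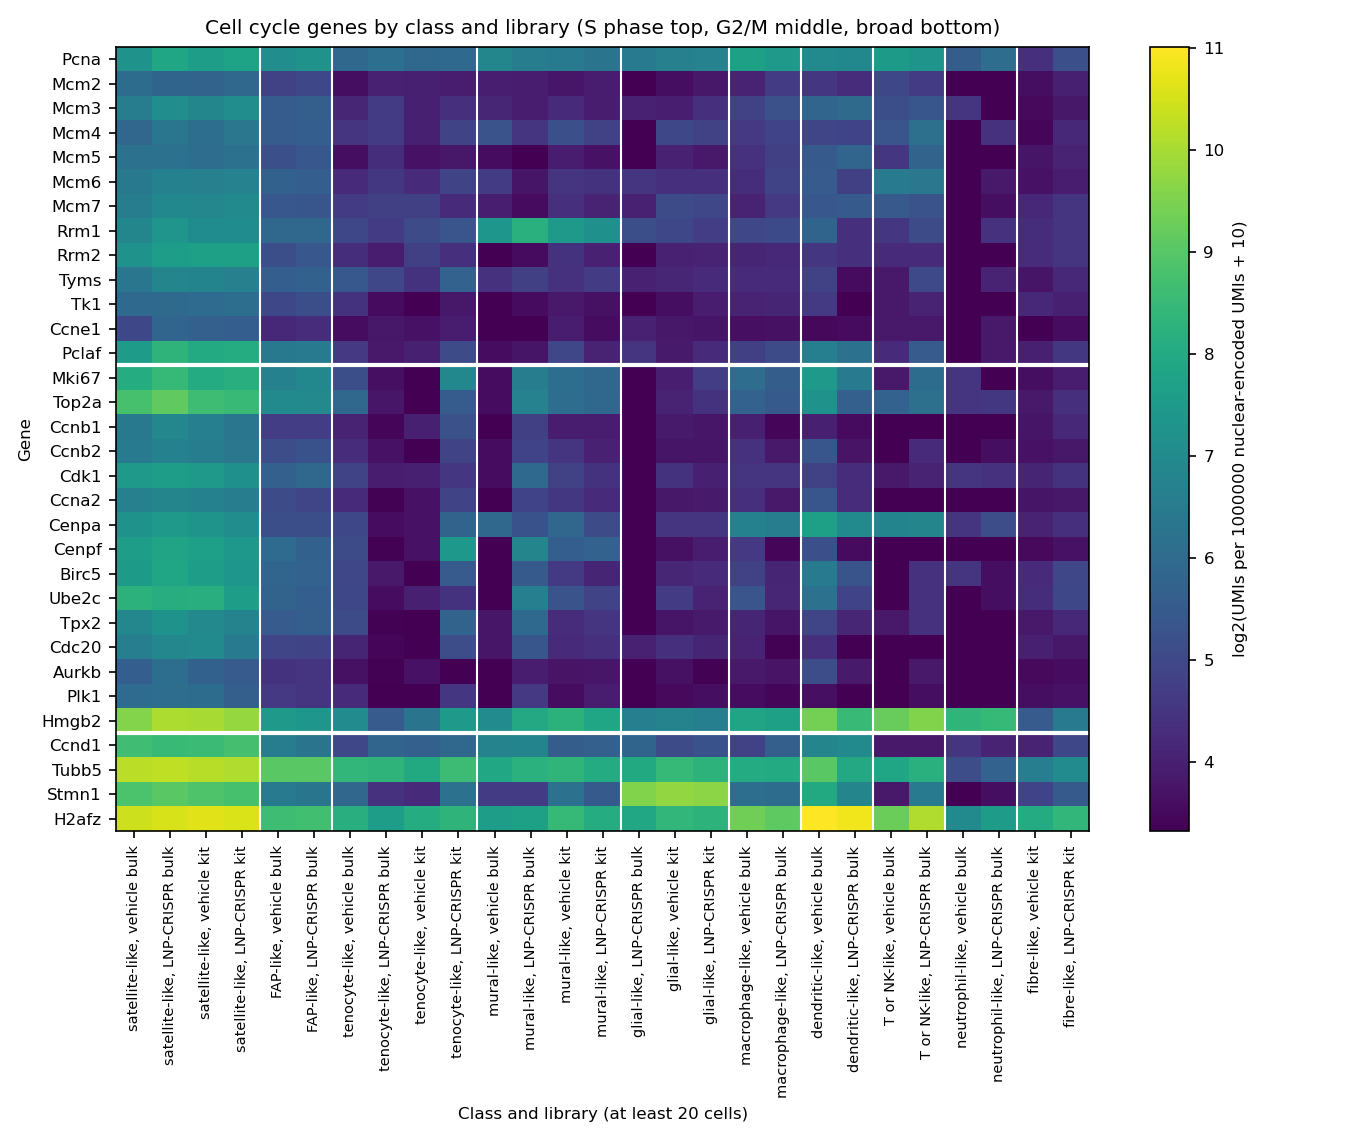
Level of each of the 32 cell cycle genes in every named cell class and library with at least 20 cells, on a log scale of UMIs per 1000000 nuclear-encoded UMIs. Satellite-like cells are the highest class for 27 to 30 of the 32 genes in each library, and Rrm1 is highest in mural-like cells in all 4.

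The S phase genes differed in how far satellite-like cells stood above other classes. The MCM2 to MCM7 proteins form the helicase ring that opens DNA at replication forks, and the Mcm3 level in vehicle kit was 105 CPM, 11.7-fold the next class. Pclaf, a partner of PCNA at the fork, and Rrm2, the cycle-regulated subunit of the ribonucleotide reductase that makes DNA building blocks, were 11.9-fold and 11.1-fold above the next class there. Vehicle kit held only 2 FAP-like cells and 1 macrophage-like cell, so these folds do not cover such classes. In vehicle bulk Mcm3 was at 83.0 CPM in satellite-like and 47.2 CPM in dendritic-like cells, and Pclaf at 176 and 89.5 CPM. Rrm2 was there at 146 CPM in satellite-like, 25.6 CPM in FAP-like and 13.3 CPM in dendritic-like cells. Pcna itself, the sliding clamp that also serves DNA repair, was 2.06-fold above glial-like cells in vehicle kit. In vehicle bulk Pcna was at 197 CPM in macrophage-like and 143 CPM in satellite-like cells.

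Rrm1 was an exception in every library. This gene encodes the large subunit of ribonucleotide reductase, the partner of Rrm2. Its level was 155, 286, 167.5 and 134.6 CPM in mural-like cells and 106, 149, 123 and 124 CPM in satellite-like cells of the 4 libraries. Mural-like cells were therefore the higher class in all 4 libraries, with counting intervals that overlapped in LNP-CRISPR kit only. In the same kit mural-like cells Rrm2 was at 11.7 and 6.21 CPM, against 196 and 198 CPM in satellite-like cells.

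Among the G2/M genes the contrast was widest for Plk1 in vehicle kit. This kinase of mitotic entry and exit was at 55.2 CPM in satellite-like cells and 25.2-fold above the next class. That class was fibre-like barcodes, with only 3 Plk1 UMIs (2.19 CPM) in vehicle kit. The size of the Plk1 contrast, and its rank as the widest, are therefore uncertain. Ccnb1 (cyclin B1, the activator of CDK1) was 15.3-fold, Aurkb (the kinase of the chromosomal passenger complex) 13.4-fold and Birc5 (survivin, of the same complex) 12.8-fold above the next class for that gene. These folds too are of vehicle kit. In vehicle bulk Aurkb was at 39.2 CPM in satellite-like and 25.4 CPM in dendritic-like cells, and Birc5 at 174 and 77.4 CPM. Ccnb1 was there at 76.1 CPM in satellite-like and 16.3 CPM in FAP-like cells, and Plk1 at 54.0 and 14.5 CPM. Hmgb2, a chromatin protein, was only 3.43-fold above the next class in vehicle kit. It was also counted in classes with little other G2/M RNA. Neutrophil-like cells of vehicle bulk and LNP-CRISPR bulk had 317 and 343 CPM of Hmgb2, out of G2/M sums of 380 and 400 CPM. G2/M values are therefore also given without Hmgb2 below. Cenpa, which stays in those values, was also widely counted outside satellite-like cells. In vehicle bulk it was at 195 CPM in dendritic-like cells (42 of 49 cells), above the 145 CPM of satellite-like cells. In LNP-CRISPR bulk it was at 118 and 167 CPM in these classes. Macrophage-like cells of vehicle bulk had 93.8 CPM of Cenpa (104 of 211 cells).

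Among the broad genes H2afz and Stmn1 were highest in other classes in part of the libraries. H2afz, the histone variant H2A.Z, was at 2047 and 1819 CPM in dendritic-like cells of vehicle bulk and LNP-CRISPR bulk, above the 1356 and 1470 CPM of satellite-like cells. The dendritic-like cluster was also led by B cell genes (Igkc, Cd79a and Ighd). Stmn1, which encodes the tubulin-binding protein stathmin, was at 863 and 805 CPM in glial-like cells of vehicle kit and LNP-CRISPR kit, above the 460 and 431 CPM of satellite-like cells. Those glial-like cells had G2/M sums of 191 and 185 CPM, so their high Stmn1 did not come with high G2/M genes.

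In several small classes 1 cell carried most of the G2/M signal. A single tenocyte-like cell held 73.2% of the G2/M UMIs of its 82 cells in vehicle bulk, and another held 89.5% of those of 39 cells in LNP-CRISPR kit. In mural-like cells of LNP-CRISPR bulk 1 of 35 cells held 84.4%, and the class sum of 884 CPM was 153 CPM without it. In kit mural-like cells 1 cell held 38.7% (vehicle) and 31.6% (LNP-CRISPR). The G2/M sums of tenocyte-like and mural-like cells thus rest on few cells.

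**Figure D2:**
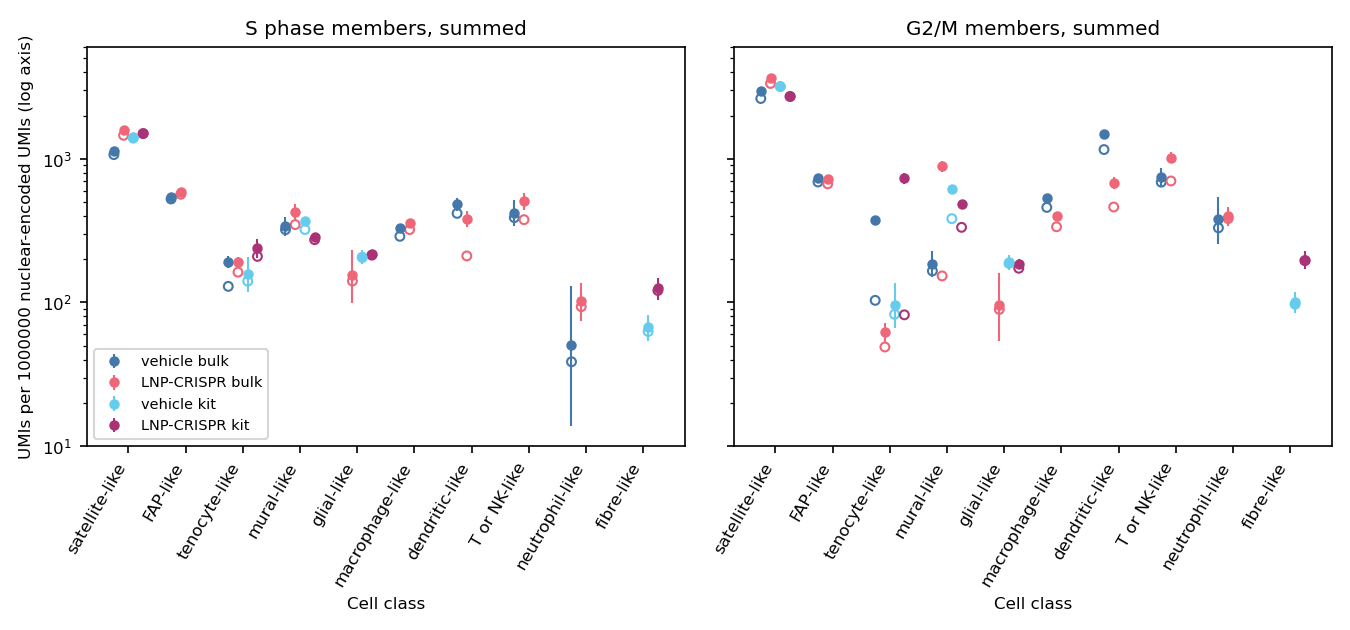
Summed level of the S phase genes (left) and G2/M genes (right) by cell class and library, in UMIs per 1000000 nuclear-encoded UMIs on a log axis. Filled points show the sum with its 95% Poisson interval and open points the sum without the cell that holds most of it, and for G2/M the open points fall far below the filled ones in tenocyte-like cells of vehicle bulk and LNP-CRISPR kit and in mural-like cells of LNP-CRISPR bulk.

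Satellite-like cells also had the highest shares of any named class when each cell was counted once. Cells were thinned to 1000 UMIs, because the chance of seeing a gene grows with depth, and a cell was counted when it kept at least 2 G2/M UMIs. The share in satellite-like cells was 27.9% (exact binomial 95% interval 15.3–43.7) in vehicle bulk, 33.3% (18.6–51.0) in LNP-CRISPR bulk, 32.4% (28.3–36.7) in vehicle kit and 36.9% (33.0–41.0) in LNP-CRISPR kit. The 4 intervals overlap. For S phase the shares were 20.9%, 16.7%, 23.1% and 27.5%.

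Fibre-like and neutrophil-like barcodes gave a background for these shares. Fibre-like barcodes, which stand for non-dividing cells, gave 3.45% (1.40–6.98) and 5.71% (2.99–9.77) in the kit libraries, at median depths of 1668 and 1652 UMIs against 20485 and 26732 in satellite-like cells before thinning. Neutrophil-like cells gave 3.33% and 9.42% in the bulk libraries at medians of 1637 and 2034 UMIs. Without Hmgb2 these became 0 of 203 (which allows up to 1.80% by the exact interval) and 3.33% for fibre-like barcodes, and 0 of 30 (up to 11.6%) and 0.725% for neutrophil-like cells, whereas satellite-like cells kept 23.3%, 33.3%, 26.3% and 27.9%. With Hmgb2 counted, macrophage-like cells (4.29% and 5.15%) and kit mural-like cells (5.59% and 5.62%) lay within or near the range of this background. Shares without Hmgb2 are not given for these classes, so they are not set against the lower background without it. FAP-like cells lay at 7.40% and 6.68%, inside the background range of the bulk libraries only with Hmgb2 counted. Without Hmgb2 they kept 5.59% (3.97–7.62) and 5.99% (3.95–8.65), above the 0 of 30 (up to 11.6%) and 0.725% of neutrophil-like cells. Dendritic-like cells were at 16.3% and 2.56%, the latter 1 of 39 cells. T or NK-like cells were at 12.1% and 18%, but at 0 of 33 (up to 10.6%) and 2% without Hmgb2. Without thinning, 46.4% and 55.1% of kit satellite-like cells had 10 or more G2/M UMIs.

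**Figure D3:**
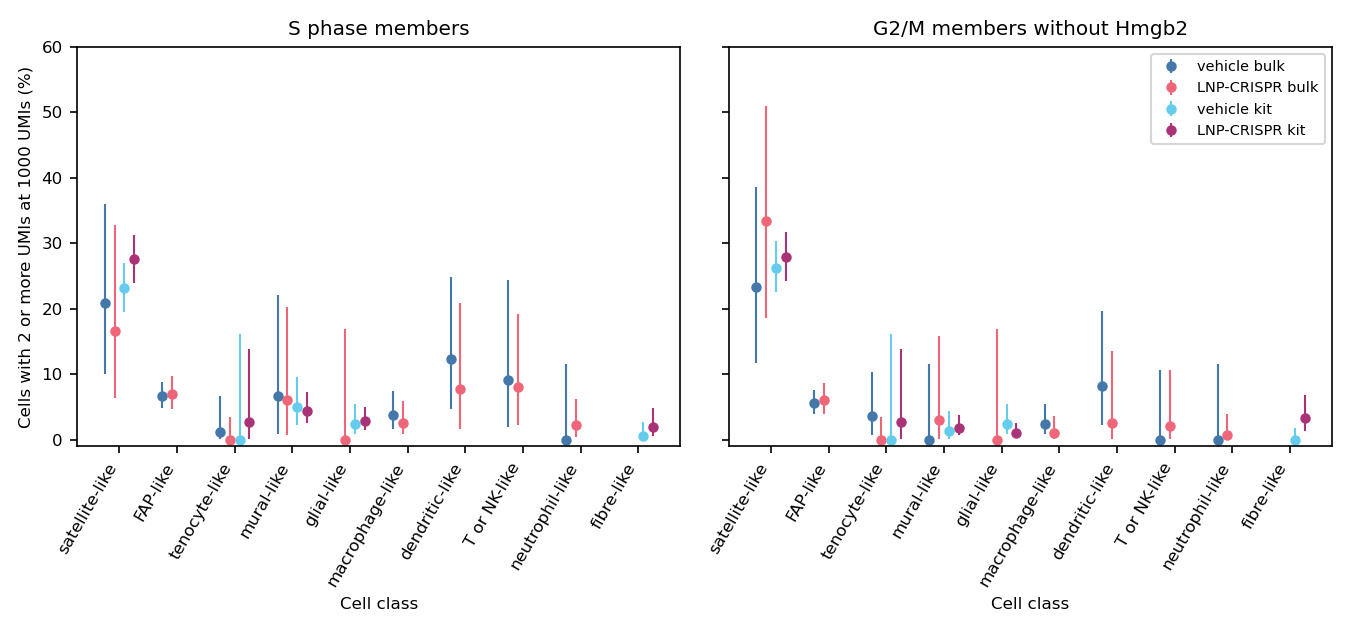
Share of cells (%) that keep at least 2 S phase UMIs (left) or G2/M UMIs (right) after thinning to 1000 UMIs, by cell class and library, with exact binomial 95% intervals. The satellite-like shares for G2/M lie between 27.9% and 36.9%, and fibre-like and neutrophil-like barcodes, the background, lie at 9.42% or below.

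Satellite-like cells with G2/M UMIs differed from the others in depth and in markers. Those that kept at least 2 G2/M UMIs had medians of 74364 and 62162 UMIs in vehicle kit and LNP-CRISPR kit, against 15464 and 19390 in the rest. Their summed level of the 5 defining satellite markers was 664 and 642 CPM, against 1724 and 1708 CPM in the rest, with none of the 5 at 0 in either set. The 12 macrophage markers summed to 15.02 and 23.3 CPM in them, with 10 and 8 of 12 at 0. Whether doublets had a part in the high depth was not tested.

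The satellite-like class joined 4 clusters that differed in their cycle genes. Cluster 9 (259 and 291 kit cells), led by Pax7 and Calcr among its markers, had S phase sums of 583 and 746 CPM and G2/M sums of 1817 and 2088 CPM in vehicle kit and LNP-CRISPR kit. Cluster 13 (180 and 216 cells) had 1845 and 2054 CPM for S phase and 4157 and 3610 CPM for G2/M. It was led by genes of replication and mitosis that had not been left out of the clustering (among them Exo1, Knl1, Esco2 and Fbxo5) and carried 3 satellite markers (Myod1, Cdh15 and Itga7), so its high sums partly repeat what defined it. Clusters 18 and 19 were marked by Myog, Mymk and Mymx, genes of myoblast differentiation and fusion. In cluster 18 (29 and 49 cells) the G2/M sum was 1650 and 632 CPM, with 31.0% and 18.4% of it in 1 cell, and in cluster 19 (39 and 34 cells) it was 184 and 204 CPM.

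Within single satellite-like cells S phase and G2/M genes were largely seen together. Thinned to 5000 UMIs, which 471 vehicle kit cells and 558 LNP-CRISPR kit cells allowed, 75 and 101 cells had at least 10 UMIs of both groups, 14 and 26 of S phase only, 88 and 102 of G2/M only, and 294 and 329 of neither. Pearson's r between the sums on a log2(UMIs + 1) scale was 0.71 and 0.69 over these cells, which share a library and a fixed depth and are not replicates. All 15 G2/M genes followed the sum of the other G2/M genes more closely than the S phase sum in both libraries. Of the 13 S phase genes 11 (vehicle kit, all but Rrm1 and Tk1) and 13 (LNP-CRISPR kit) followed the S phase sum more closely. Ccnd1 (cyclin D1, of G1 phase) lay closer to the S phase sum, and Tubb5, Stmn1 and H2afz lay closer to the G2/M sum.

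A small set of cells had very high G2/M counts and few S phase counts. At least 40 G2/M UMIs of 5000, a limit chosen after the values had been seen, were found in 21 of 471 vehicle kit cells (4.46%) and 17 of 558 LNP-CRISPR kit cells (3.05%). They held 26.9% and 16.9% of all G2/M UMIs, and their median S phase count was 5 and 3 UMIs, against 10 and 10 in the 142 and 186 cells with 10 to 39 G2/M UMIs. All 13 S phase genes in vehicle kit and 12 of 13 in LNP-CRISPR kit (all but Mcm5) had a lower mean in them. Ccne1, the cyclin E1 of S phase entry, was at 0.169 and 0.223 of its mean in the cells with 10 to 39.

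These cells were chosen by their G2/M sum, so a higher mean of G2/M genes in them follows from the choice, but its size differed between genes. Cenpf, a kinetochore protein that accumulates in G2, had a mean of 8.81 UMIs against 0.958 in vehicle kit and 6.24 against 1.32 in LNP-CRISPR kit, that is 9.20-fold and 4.71-fold. Mki67, which encodes the Ki-67 protein that coats mitotic chromosomes, had 7.86 against 1.70 and 8.88 against 2.16 UMIs. Ccnb2, the cyclin B2 whose promoter is printed above, was 1.90-fold and 5.01-fold. Of the 21 and 17 cells 12 and 15 lay in cluster 9 and 8 and 2 in cluster 13, and their median depth was 30387 and 24515 UMIs against 74931 and 72444 in the cells with 10 to 39. At a limit of 30 there were 44 and 48 such cells, with a median of 6 S phase UMIs in both libraries against 10 in the cells with fewer G2/M UMIs. Their cluster and depth depended on the limit in vehicle kit, where 24 now lay in cluster 13 and 18 in cluster 9, at a median depth of 79203 UMIs against 72539. In LNP-CRISPR kit 27 lay in cluster 9 and 20 in cluster 13, at 34347 UMIs against 73197.

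**Figure D4:**
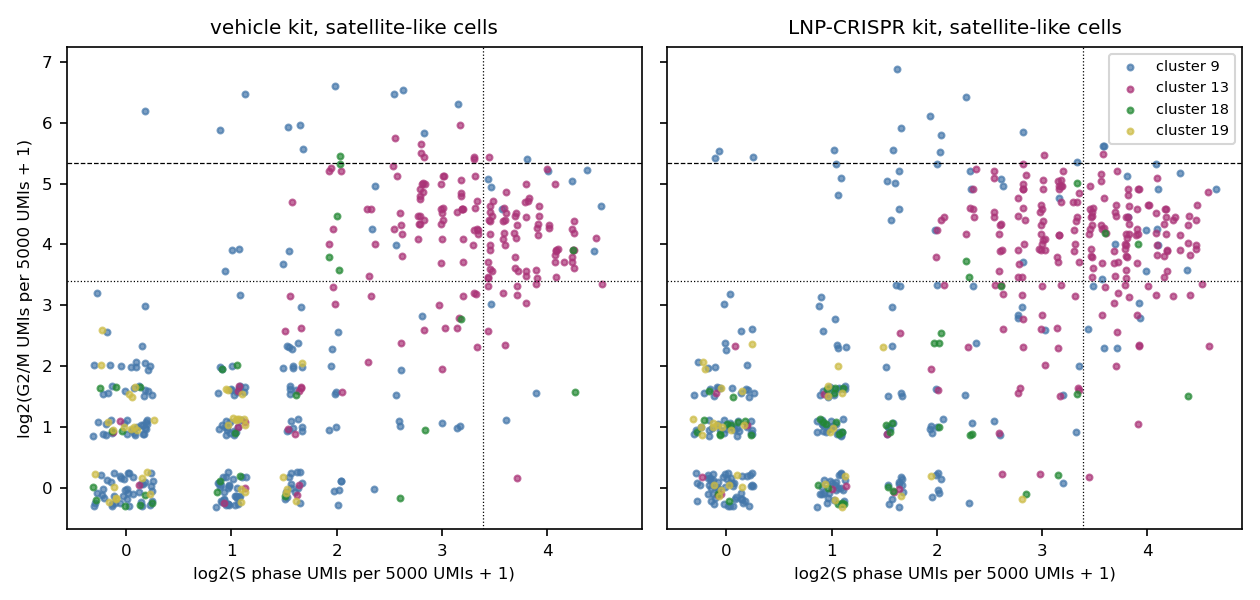
Summed G2/M UMIs against summed S phase UMIs of each kit satellite-like cell thinned to 5000 UMIs, on log2(UMIs + 1) axes with a small random offset so that points do not hide each other, colored by cluster. Dotted lines mark 10 UMIs and the dashed line 40 G2/M UMIs, above which 21 vehicle kit and 17 LNP-CRISPR kit cells lie, mostly with few S phase UMIs.

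Between the kit libraries, S phase genes of satellite-like cells were slightly higher and G2/M genes lower with LNP-CRISPR. The S phase sum was 1.06-fold (1.05–1.08) and the G2/M sum 0.853-fold (0.844–0.862) the vehicle value. Of the 13 S phase genes 11 had ratios above 1 and 2 below (Tyms and Ccne1), and of the 15 G2/M genes 14 had ratios below 1 and 1 above (Mki67). The counting interval lay wholly above 1 for 7 S phase genes and below it for 1, and wholly below 1 for 14 G2/M genes and above it for 1. With this many UMIs small ratios are enough for that, as for Pclaf (1.05, 1.01–1.09). No share of all features with such intervals is given, so these counts do not set the cycle genes apart. The median log2 ratio was 0.11 for S phase, −0.24 for G2/M and −0.02 over all 13320 features with at least 20 UMIs. None of the 32 passed a ratio of 1.5 in either direction, which 3.26% of all features did upward and 4.89% downward.

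The G2/M direction turned when cells rather than UMIs were counted. With each cell weighted the same the G2/M ratio was 1.04, and after thinning to 1000 UMIs it was 1.01, while the S phase ratio was 1.18 in both. By cluster the ratio was 0.869 in cluster 13, whose cells had a median of 76053 UMIs and so give most of the sum, and 1.15 in cluster 9, with a median of 14329 UMIs. Cells that kept at least 2 G2/M UMIs had a lower median depth in LNP-CRISPR kit than in vehicle kit (62162 and 74364 UMIs), and the part of depth in the difference was not tested.

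The 3 lowest kit ratios among G2/M genes were those of Ube2c, Cdc20 and Plk1. Ube2c, the ubiquitin-conjugating enzyme of the anaphase-promoting complex, was at 296, 266, 273 and 183 CPM in the 4 libraries, a kit ratio of 0.673 (0.647–0.700). Cdc20, an activator of the same complex, was at 86.7, 109, 115 and 78.4 CPM, a kit ratio of 0.683 (0.643–0.726). Plk1 was at 54.0, 57.8, 55.2 and 40.3 CPM, a kit ratio of 0.730 (0.669–0.796). For these 3 genes LNP-CRISPR kit was the lowest of the 4 libraries.

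Ccnb1, Cdk1 and Birc5 had the next ratios. Ccnb1 was at 76.1, 108, 89.7 and 71.4 CPM in the same order of libraries, a kit ratio of 0.796 (0.745–0.850). Cdk1, the kinase that cyclin B activates, was at 169, 183, 168 and 134 CPM, a kit ratio of 0.798 (0.760–0.837). Birc5 was at 174, 222, 189 and 153 CPM, a kit ratio of 0.808 (0.772–0.845). LNP-CRISPR kit was again lowest for all 3 genes, and LNP-CRISPR bulk was highest.

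The remaining G2/M genes had kit ratios from 0.840 to 1.05. Cenpf was at 184, 217, 191 and 161 CPM (kit ratio 0.840), Ccnb2 at 82.5, 94.2, 85.2 and 72.0 CPM (0.845) and Cenpa, the centromeric histone, at 145, 167, 149 and 127 CPM (0.852). Hmgb2 was at 751, 1047, 1015 and 873 CPM (0.860), and Tpx2, which helps build the spindle, at 109, 144, 114 and 98.0 CPM (0.863). Aurkb was at 39.2, 58.4, 41.8 and 36.3 CPM (0.868) and Ccna2, the cyclin of S phase and G2, at 91.8, 104, 93.5 and 85.9 CPM (0.919). Top2a, the topoisomerase that untangles copied DNA, was at 430, 546, 384 and 363 CPM (0.945), and Mki67 alone was above 1, at 258, 342, 257 and 270 CPM (1.05, 1.01–1.09).

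The 3 highest kit ratios among S phase genes were those of Mcm4, Mcm3 and Mcm5, all subunits of the helicase. Mcm4 was at 47.5, 71.5, 58.5 and 72.2 CPM in the 4 libraries, a kit ratio of 1.23 (1.14–1.33). Mcm3 was at 83.0, 126, 105 and 127 CPM, a kit ratio of 1.21 (1.14–1.28). Mcm5 was at 62.7, 63.3, 56.6 and 65.1 CPM, a kit ratio of 1.15 (1.06–1.24). The other subunits of the ring, Mcm2, Mcm6 and Mcm7, had kit ratios of 1.09, 1.04 and 1.08. For all 6 subunits LNP-CRISPR kit lay above vehicle kit, and in the bulk libraries 5 of 6 did so, Mcm2 going from 55.8 to 45.4 CPM.

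Among genes of nucleotide supply, Rrm1 and Rrm2 had kit ratios of 1.01 and 1.01, Tk1 (thymidine kinase) 1.08 and Tyms (thymidylate synthase) 0.917 (0.863–0.975), the last at 71.0, 102.5, 99.8 and 91.5 CPM. Pcna was at 143, 223, 188 and 208 CPM, a kit ratio of 1.10 (1.06–1.15). Pclaf was at 176, 307, 250 and 261 CPM (1.05), and Ccne1 at 21.7, 46.8, 41.2 and 38.7 CPM (0.940). Of the broad genes, Ccnd1 was at 392, 357, 366 and 415 CPM (1.14) and Tubb5, Stmn1 and H2afz had kit ratios of 0.929, 0.936 and 0.935.

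**Figure D5:**
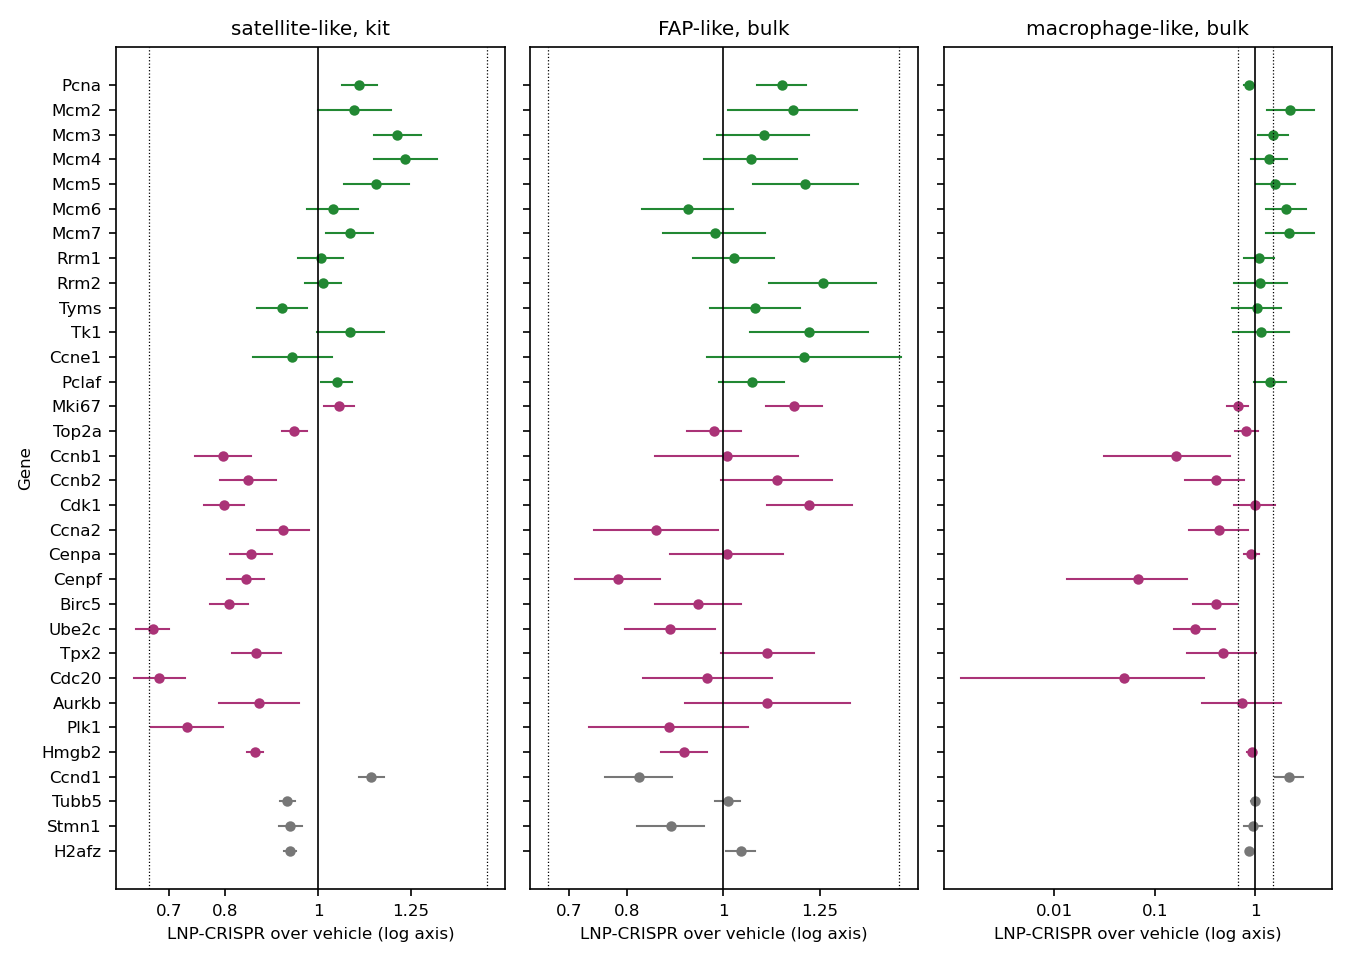
Ratio of LNP-CRISPR over vehicle for each cell cycle gene, on log axes that differ between the panels, in kit satellite-like cells, bulk FAP-like cells and bulk macrophage-like cells, with counting intervals, S phase genes in green, G2/M genes in purple and broad genes in gray. Dotted lines mark 1.5-fold in each direction, and genes with fewer than 20 UMIs are not drawn. No gene passes the lines in the first 2 panels, and 9 G2/M genes lie below them in the macrophage-like panel.

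Ratios differed between the clusters of kit satellite-like cells. In cluster 9, 29 of 32 genes had ratios above 1, some of them barely (Tyms 1.02, Top2a 1.04). No share of all features above 1 is given beside that count. In the same cluster 3 genes passed 1.5-fold upward (beside 5.73% of all features) and 0 downward (beside 7.19%). These were Mcm3 (34.6 to 58.2 CPM, 1.68-fold), Ccnb1 (28.3 to 43.3 CPM, 1.53-fold) and Ccnd1 (189 to 352 CPM, 1.86-fold, 1.71–2.03). In cluster 13 none passed upward (beside 3.4%) and 2 passed downward (beside 4.99%), Ube2c (360 to 239 CPM, 0.664-fold) and Cdc20 (152 to 99.5 CPM, 0.655-fold). In cluster 9 the same 2 genes were 1.20-fold and 1.21-fold. Clusters 18 and 19 held too few cells for the comparison rule. In cluster 18 the S phase sum was 973 CPM in vehicle kit and 523 CPM in LNP-CRISPR kit, lower as its G2/M sum was, with 32.1% of it in 1 cell in vehicle kit. In cluster 19 the S phase sum was 150.3 and 133.6 CPM. In the bulk satellite-like cells, 43 and 36 and too few for the comparison rule, S phase was 1.40-fold and G2/M 1.24-fold the vehicle value. Of the 32 genes 5 (Pcna, Mcm3, Mcm4, Ccne1 and Pclaf, all of S phase) passed 1.5-fold upward there (beside 8.72% of all features) and 0 downward (beside 8.23%).

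FAP-like cells, the fibro-adipogenic progenitors that lay down matrix in muscle, formed the largest bulk class (664 and 439 cells) and showed little difference. The S phase sum was 538 and 589 CPM (1.09-fold, 1.07–1.13) and the G2/M sum 736 and 728 CPM (0.989-fold, 0.965–1.01) in vehicle and LNP-CRISPR. None of the 32 genes passed 1.5-fold, beside 3.63% of all features upward and 6.52% downward, and the median log2 ratio was 0.13 for S phase and −0.03 for G2/M, beside −0.05 over all features. The 3 G2/M genes with the highest levels were Hmgb2 (168 and 153 CPM), Top2a (115 and 113 CPM) and Mki67 (94.3 and 111 CPM). For S phase these were Pcna (125 and 143 CPM), Pclaf (75.7 and 80.8 CPM) and Rrm1 (49.8 and 51.0 CPM). After thinning, the S phase ratio was 0.953.

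The FAP-like total hid a difference between its clusters. Cluster 2 (277 and 204 cells), which held 40 of the 49 and 26 of the 29 FAP-like cells that kept at least 2 G2/M UMIs after thinning, had G2/M sums of 1102 and 1109 CPM and none of the 32 genes past 1.5-fold, beside 4.27% of all features upward and 5.71% downward. Cluster 4 (372 and 225 cells) had G2/M sums of 241 and 149 CPM, and 15 of its 32 cycle genes passed 1.5-fold downward, beside 9.47% of all features, and 0 upward, beside 3.74%. Of the 15, 10 were G2/M genes, among them Ube2c (103 and 12 UMIs), Ccna2 (55 and 6 UMIs) and Plk1 (27 and 3 UMIs). In cluster 4 a single cell held 29.2% and 23.2% of the G2/M UMIs, and with each cell weighted the same the G2/M ratio was 0.885 instead of 0.619. Leaving out, for each gene, the cell with most of its UMIs gave 20 of 32 genes below the line. No share of all features is given under that rule, so this count does not set the cycle genes apart. Of the genes named, Ube2c was detected in 2.96% and 3.56% of the cells, Ccna2 in 2.42% and 2.22% and Plk1 in 1.61% and 1.33%.

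Macrophage-like cells (211 and 200 in bulk) had lower mitotic genes and higher helicase genes with LNP-CRISPR. The G2/M sum was 532 and 400 CPM (0.753-fold, 0.699–0.810) and the S phase sum 328 and 356 CPM (1.09-fold, 0.998–1.18). Of 14 G2/M genes with at least 20 UMIs 9 passed 1.5-fold downward and 0 upward, and of 12 S phase genes 4 passed upward and 0 downward, beside 7.54% of all features downward and 5.61% upward. The median log2 ratio was −1.10 for G2/M, 0.45 for S phase and −0.03 over all features. Without the cell with most UMIs of each gene, 10 G2/M genes passed downward and 4 S phase genes upward. A share of all features under that rule is not given, so these 2 counts do not set the cycle genes apart.

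The UMIs behind these ratios were few. Cenpf had 46 UMIs in vehicle and 3 in LNP-CRISPR, a ratio of 0.0674 (0.0134–0.210), and Cdc20 had 21 and 1 (0.0492, 0.00119–0.306). Ube2c had 98 and 24 UMIs (0.253, 0.155–0.399), Ccnb1 19 and 3 (0.163, 0.0309–0.554) and Birc5 59 and 23 (0.403). Upward were Mcm2 (22 and 47 UMIs, 2.21-fold, 1.30–3.85), Mcm7 (21 and 44, 2.16-fold), Mcm6 (32 and 62, 2.0-fold) and Mcm5 (36 and 55, 1.58-fold), and the broad gene Ccnd1 (60 and 125, 2.15-fold). Mki67, at 57.0 and 38.0 CPM (0.666-fold), was also among the 9. Other genes with many UMIs had ratios nearer 1: Hmgb2 was at 214 and 195 CPM, Cenpa at 93.8 and 85.0 CPM, Pcna at 197 and 168 CPM and Rrm1 at 21.2 and 22.9 CPM.

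The macrophage-like difference depended on which cells were counted. Only 9 and 10 cells kept at least 2 G2/M UMIs after thinning. In them the 5 satellite markers were all at 0 in both libraries, and the 12 macrophage markers summed to 14392 and 8301 CPM. The G2/M ratio was 1.05 and the S phase ratio 0.849 in thinned cells, and the S phase ratio was 0.993 with each cell weighted the same. The G2/M ratio was 0.904 at a finer clustering and 0.924 with a stricter mitochondrial limit. It was 0.701 in cluster 1 (146 and 138 cells, marked by C1qa, C1qb and C1qc), where 9 genes passed 1.5-fold downward, beside 8.31% of all features, and 5 upward, beside 6.36%. It was 0.977 (0.832–1.15) in cluster 7 (65 and 62 cells, marked by Ly6c2 and Ccr2), where 6 genes had at least 20 UMIs and 1 of them, Tubb5, passed downward, beside 11.9% of all features, and 0 upward, beside 9.4%.

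The other compared classes rest on few cells or few UMIs. In bulk tenocyte-like cells (82 and 109) the G2/M sum was 374 and 61.8 CPM, and all 12 G2/M genes with at least 20 UMIs passed 1.5-fold downward, beside 10.7% of all features. Of 12 S phase genes 4 passed upward (Mcm2, Mcm3, Mcm5 and Mcm6), beside 7% of all features, and 4 downward (Rrm2, Tyms, Tk1 and Pclaf), and of the broad genes Ccnd1 passed upward and Stmn1 downward. The G2/M ratio of 0.165 became 0.474 without the highest cell of each library. When the cell with most UMIs of each gene was left out, 7 of the 12 genes passed downward and 2 upward, with no share of all features given. The 3 vehicle cells that kept at least 2 G2/M UMIs after thinning had no UMI of the 5 satellite markers, and macrophage markers summed to 63.5 CPM in them, with 11 of 12 at 0.

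Kit mural-like cells (173 and 355) had lower sums with LNP-CRISPR, 368 and 285 CPM for S phase and 616 and 483 CPM for G2/M. Of the 32 genes 14 passed downward (8 of S phase, 5 of G2/M and Stmn1), beside 12% of all features, and 1 upward (Plk1, 5 and 28 UMIs), beside 5.15%. Without the cell with most UMIs of each gene these became 7 and 5, with no share of all features given under that rule. In the 9 vehicle kit cells that kept at least 2 G2/M UMIs the 5 satellite markers summed to 259 CPM, against 62.9 CPM in the rest, and in the 19 such LNP-CRISPR kit cells to 34.8 against 17.7 CPM. The part of these markers in the difference was not tested.

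Kit glial-like cells (252 and 428) had S phase sums of 207 and 216 CPM and G2/M sums of 191 and 185 CPM. Of 25 genes with at least 20 UMIs 5 passed upward, beside 8.09% of all features, and 2 downward, beside 5.19%. The 2 were Cdk1 (17 and 19 UMIs) and Ube2c (22 and 22 UMIs), and Mki67 (8 and 51 UMIs, 2.97-fold) was among the 5. Fibre-like barcodes had S phase sums of 67.2 and 125 CPM and G2/M sums of 101 and 199 CPM. With each barcode weighted the same the G2/M ratio of 1.97 became 1.19. Of 14 genes 10 passed upward, beside 26.1% of all features, and 0 downward, beside 5.16%. The median depth of fibre-like barcodes was 1668 and 1652 UMIs.

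The wider pathway was followed with 90 further genes in 5 lists. In kit satellite-like cells all 90 had at least 20 UMIs, and 1 passed 1.5-fold upward, beside 3.26% of all features, and 0 downward, beside 4.89%. It was Ccnd2 (cyclin D2), with 6 and 27 UMIs (3.40-fold, 1.38–10.1). Of 17 replication genes 13 had ratios above 1, with a median log2 ratio of 0.12, as had 11 of 14 RB, E2F and MuvB factors (median 0.13). Of 45 mitosis genes 40 had ratios below 1 (median −0.20, beside −0.02 over all features). In the few bulk satellite-like cells 42 of the 45 had ratios above 1. No share of all features above or below 1 is given for the kit or the bulk cells, so these counts do not set the lists apart.

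The 3 highest and 3 lowest ratios of the 90 genes are named by rule, so their sides follow from the choice. Beside Ccnd2 the highest were Hells and Uhrf1. Hells, a chromatin remodeller of replicating cells, went from 98.5 to 124 CPM (1.26-fold), and Uhrf1, which carries DNA methylation through replication, from 80.0 to 97.5 CPM (1.22-fold). Aurka, the centrosomal Aurora kinase, went from 30.5 to 22.8 CPM (0.748-fold), Ect2, of cytokinesis, from 51.3 to 39.3 CPM (0.766-fold) and Cdkn2c, an inhibitor of CDK4 and CDK6, from 32.4 to 24.7 CPM (0.763-fold). The CDK inhibitors Cdkn1a (p21), Cdkn1b (p27) and Cdkn1c (p57) were at 252 and 290, 54.8 and 49.4, and 1070 and 997 CPM. No inhibitor passed 1.5-fold in either direction.

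Some CDK inhibitors had ratios further from 1 in other classes, and some had ratios near 1. In FAP-like cells Cdkn1c was at 205 and 127 CPM (0.620-fold, 0.587–0.654), Cdkn1b at 64.1 and 50.7 CPM and Cdkn1a at 101 and 104 CPM. In kit mural-like cells Cdkn1a was at 559 and 821 CPM (1.47-fold) and Cdkn1c at 96.2 and 48.8 CPM (0.507-fold). In kit glial-like cells, with the highest Cdkn1a and Cdkn1b among the kit classes, Cdkn1a was at 1448 and 1365 CPM and Cdkn1b at 524 and 522 CPM. In fibre-like barcodes Cdkn1a was at 91.3 and 173 CPM (1.89-fold), a class in which 26.1% of all features passed 1.5-fold upward.

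In macrophage-like cells the pathway genes were also called in both directions. Of 68 with at least 20 UMIs 20 passed downward, beside 7.54% of all features, and 5 upward, beside 5.61%. They come from the same cells as the sums of the 32 genes, whose directions turned after thinning (1.05 for G2/M and 0.849 for S phase). The downward ones included 16 of 32 mitosis genes, such as Pbk (26 and 4 UMIs, 0.159-fold) and Spc25 (31 and 7 UMIs, 0.233-fold), and the upward ones 4 of 14 replication genes, such as the DNA ligase Lig1 (24 and 60 UMIs, 2.58-fold) and Dut (18 and 36 UMIs, 2.07-fold). Ccnd2 was the fifth (43 and 92 UMIs, 2.21-fold). In FAP-like cells 1 of 90 pathway genes passed upward, beside 3.63% of all features, and 2 downward, beside 6.52%.

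Outside these lists, some genes had levels that ran with the sums over 16 groups of class and library with at least 50 cells. For G2/M they were Aspm (r = 0.90), Hist1h2ak (0.89), Shcbp1 (0.89), Ncaph (0.89) and Hist1h1e (0.89), and for S phase Ssrp1 (0.96), Hspa4 (0.96), G3bp1 (0.95), Smyd5 (0.95) and Efl1 (0.95), by Pearson's r of log2(CPM + 10). The groups share libraries and depth, so these values describe likeness of level only. Aspm, a spindle pole gene, was highest in vehicle kit satellite-like cells, at 47.3 CPM.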

How the data were processed

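The deposited matrices hold raw UMI counts per gene and barcode from 10x Chromium 3′ v3.1 libraries, all whole numbers. Different versions of the counting software are on record: cellranger 5.0.1 per the file headers, and Cell Ranger 7.0.1 with the build mm10 per the submitters' processing notes. The 32 genes and all lists were chosen with earlier results of these data known. Barcodes below 200 genes or above 20% mitochondrial UMIs were left out (101, 165, 272 and 300). Scrublet (in scanpy 1.11.5) called 0.260% to 0.496% doublets, too few to have worked, so most doublets are taken to remain. Kept cells were clustered without 205 cycle and histone genes, mitochondrial genes and Cas9 (2000 variable genes, 30 components, 15 neighbours, Leiden resolution 1, seed 1). Naming a cluster took 3 or more markers, each with a log2 fold of 1 or more and a UMI in at least 10% of its cells.

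UMIs were summed per class and library. Ratios carry exact conditional binomial 95% intervals, sums exact Poisson intervals and shares exact Clopper-Pearson intervals, all covering counting error only. A class was compared within an isolation when each library held at least 50 of its cells, and a gene with at least 20 UMIs was counted when its ratio passed 1.5-fold. The rule for named genes gave values of all 32 genes in the satellite-like class, the 3 most abundant of each group elsewhere, and from 90 pathway genes the 3 highest and 3 lowest ratios (30 UMIs or more) with Cdkn1a, Cdkn1b and Cdkn1c. Other values, the cluster comparisons and counts without each gene's highest cell were chosen after they had been seen. The ratio step was tested on simulated data. Python 3.11.15, numpy 2.4.6, scipy 1.17.1, pandas 2.3.3, scikit-learn 1.9.0, igraph 0.11.9 and matplotlib 3.10.9 were used.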

Additional observations from a re-analysis of the deposited data

How the results depend on the processing

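Alternatives changed 1 choice at a time. In kit satellite-like cells the G2/M ratio (0.853) was 1.04 with each cell weighted the same, 1.01 after thinning to 1000 UMIs and 0.836 with cells named by their own marker score, under which 2 genes passed 1.5-fold downward instead of 0. The S phase ratio (1.06) was 1.18 with equal weights and 1.18 after thinning. In bulk FAP-like cells the G2/M ratio (0.989) was 0.959 when clustered with the cycle genes, 1.06 by own marker score, 0.924 with equal weights and 0.870 after thinning, and the S phase ratio (1.09) was 1.01 with equal weights and 0.953 after thinning. In bulk macrophage-like cells the G2/M ratio (0.753) was 0.924 at 10% mitochondrial UMIs or less, 0.904 at resolution 2 and 1.05 after thinning, and the S phase ratio (1.09) was 0.993 with equal weights and 0.849 after thinning. The satellite-like shares (32.4% and 36.9%) were 58.0% and 60.2% at 5000 UMIs and 27.1% and 29.1% at 3 or more G2/M UMIs. Beyond the weighting and thinning built into these settings, the cause was not tested. The other planned settings, and counting the unnamed low-depth cluster as satellite-like (added after the data had been seen), left these values within their counting intervals and the counts at 0. No paired analysis was possible because each group has 1 library.

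With 1 library per group, animal, dissociation, sequencing run and treatment cannot be told apart. Depth limits the G2/M genes most in fibre-like, glial-like and tenocyte-like cells, where several have fewer than 20 UMIs. Doublets were not effectively removed, and satellite-like cells with G2/M UMIs are far deeper than the rest. Clusters were named from markers alone, and cluster 13 was led by genes of replication and mitosis.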
